A study of Homo sapiens with 12 samples.

Results

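The members described here are 5 human genes of the acute-phase response: the serum amyloid A genes SAA1 and SAA2, the serine protease inhibitor (serpin) genes SERPINA1 and SERPINA3, and the long pentraxin gene PTX3. They were taken by symbol from a table of 20286 gene IDs, and each symbol matched 1 ID. RNA was sequenced from HK-2 cells, an immortalised line of human kidney proximal tubule epithelium described in the labels as wild type and grown in DMEM medium with fetal bovine serum. For 48 h the cells received recombinant S100A9, recombinant S100A8 or recombinant S100A8/S100A9, or a matching amount of phosphate-buffered saline (PBS) as control. The labelled protein concentration was 5 mg/mL, a unit that could not be checked here. Each of the 4 groups held 3 libraries of 1 cell line, and nothing in the labels says that they came from separate cultures, so the p-values speak of the spread among these libraries alone, and that spread may be technical.

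Acute-phase proteins are made in large amounts by the liver during inflammation, when IL-6, IL-1 and TNF act on hepatocytes through STAT3, C/EBP and NF-kB factors, and several are also made by epithelial cells at the site of injury. SAA1 and SAA2 encode the inducible forms of serum amyloid A, a lipid-binding protein carried on high-density lipoprotein. SERPINA1 encodes alpha-1-antitrypsin, which inhibits neutrophil elastase, and SERPINA3 encodes alpha-1-antichymotrypsin, which inhibits cathepsin G and chymase. PTX3 encodes a soluble pattern recognition protein that binds microbes and complement components and is produced locally rather than by the liver.

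SAA1 (ENSG00000173432) lies on chromosome 11 from 18266174 to 18269977 on the plus strand and SAA2 (ENSG00000134339) from 18239223 to 18248643 on the minus strand, in GENCODE release 29 on GRCh38. No human build behind the counts is named in the sources used here, so these coordinates locate the genes and not the reads. The coding sequences of the principal transcripts differed at 11 of 366 bases, an identity of 97.0%, and 9 of those 11 differences fell in the last coding exon. Coding exons 2 and 3 are printed because they hold the longest identical run within an exon and most of the coding differences. Coding exon 1, not printed, also held 1 difference, and the untranslated parts were not compared base by base. Capitals mark the bases that differ between the pair. Coding exon 2 is at chr11:18269195-18269333 in SAA1 and at chr11:18245910-18246048 in SAA2, and coding exon 3 is at chr11:18269717-18269852 in SAA1 and at chr11:18245380-18245515 in SAA2. Sequences run 5′ to 3′ on the coding strand.
SAA1 coding exon 2: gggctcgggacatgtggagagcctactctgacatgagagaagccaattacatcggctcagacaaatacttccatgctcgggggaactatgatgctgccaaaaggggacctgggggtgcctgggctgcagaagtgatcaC
SAA2 coding exon 2: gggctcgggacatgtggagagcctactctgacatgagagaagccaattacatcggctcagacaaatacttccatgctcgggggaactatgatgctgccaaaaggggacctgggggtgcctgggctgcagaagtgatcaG
SAA1 coding exon 3: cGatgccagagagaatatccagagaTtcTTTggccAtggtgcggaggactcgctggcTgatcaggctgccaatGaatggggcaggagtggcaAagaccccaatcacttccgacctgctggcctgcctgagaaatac
SAA2 coding exon 3: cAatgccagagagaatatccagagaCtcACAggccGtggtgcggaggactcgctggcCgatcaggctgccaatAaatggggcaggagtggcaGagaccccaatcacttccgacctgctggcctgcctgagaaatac

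Of the 139 bases of coding exon 2, 138 form a single identical run. Over the whole SAA1 transcript of 615 bases, 34.1% of all stretches of 50 bases and 16.9% of all stretches of 100 bases also occur unchanged in a SAA2 transcript. Reads from these stretches cannot be assigned to 1 gene by their sequence. SAA1 and SAA2 held fractional counts in 4 libraries, all 3 of S100A9 and 1 of S100A8. In each of these 4 the sum over SAA1, SAA2 and the read-through gene SAA2-SAA4 was whole within 0.005. In S100A9 replicate 1, for example, 52.86 and 30.14 counts made 83. In the other libraries each of these counts was already whole. The pair is therefore given both apart and summed.

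Both SAA genes rose after S100A9 alone and after neither of the other preparations. In S100A9 libraries SAA1 had 52.86, 62.4 and 50.56 counts, against 7, 8 and 9 in control libraries. Scaled to library size with TMM factors (CPM), this was 3.03 ± 0.23 CPM after S100A9 and 0.473 ± 0.056 CPM in control (SD, n = 3 each). The lowest S100A9 library, at 2.78 CPM, was above the highest control library, at 0.510 CPM. The log2 fold change was 2.66 (SE 0.32, 95% interval 2.01 to 3.31), with an adjusted p of 1.56e-05 in edgeR's quasi-likelihood test over 13512 genes. In bulk RNA, more cells that express a gene and more RNA per cell cannot be told apart.

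SAA2 had 30.14, 33.56 and 34.44 counts in S100A9 libraries, against 3, 5 and 5 in control libraries, so its control level rests on 13 counts in all. Every S100A9 library was above every control library. Its level was 1.79 ± 0.09 CPM after S100A9 and 0.257 ± 0.073 CPM in control (SD, n = 3 each). The log2 fold change was 2.77 (SE 0.43, 95% interval 1.88 to 3.66; edgeR adjusted p = 0.0014). On the log2(FPKM + 1) scale it was 1.34, still past the threshold in limma.

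Summed, the pair stood at 4.86, 4.94 and 4.67 CPM in S100A9 libraries and at 0.584, 0.815 and 0.793 CPM in control libraries. The S100A9 libraries lay close together and all above control. The pair rose 6.56-fold (95% interval 4.42 to 9.73), a log2 fold change of 2.71 (SE 0.28; edgeR adjusted p = 1.37e-06). In reads, the 3 S100A9 libraries together held 263.96 counts of the pair (exact Poisson 95% interval 233 to 298) and the 3 control libraries 37 (26.1 to 51.0), intervals that cover counting error only. Of the 5 members 4 passed the filter on low counts, and the 2 called higher were SAA1 and SAA2, in a comparison where 0.141% of all genes tested were called higher. Both passed that filter only through their S100A9 libraries, so nothing is read from this count.

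**Figure D1:**
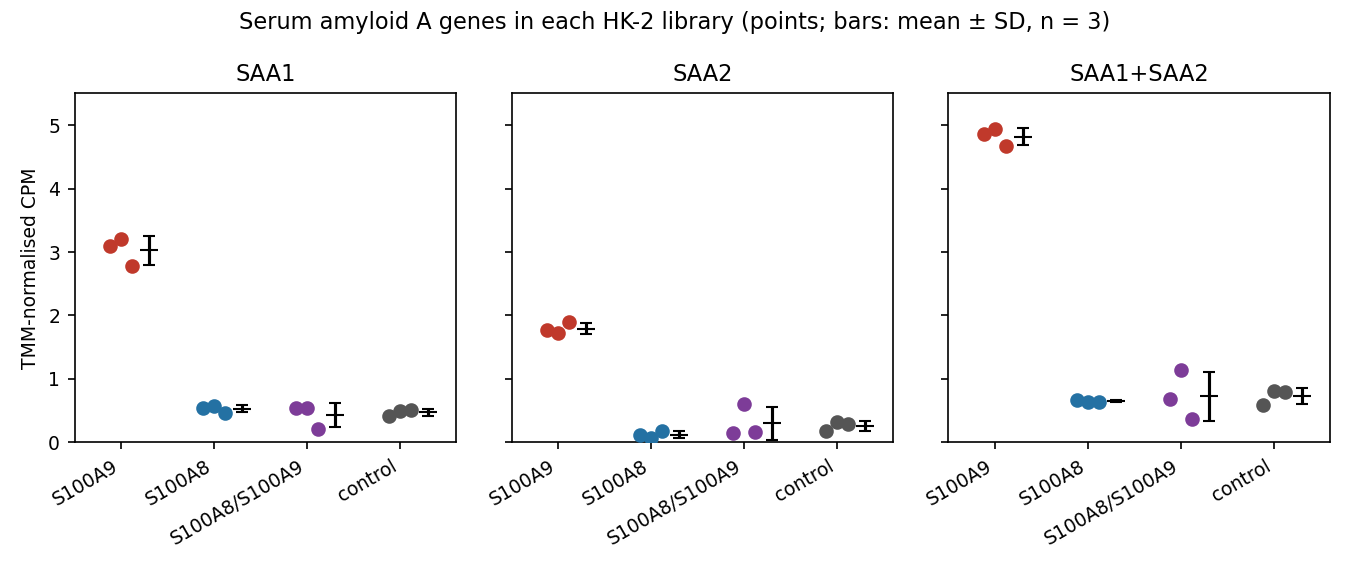
TMM-normalised CPM of SAA1, SAA2 and their sum (y axis, linear) in each library of the 4 groups (x axis). Points are libraries and black marks are mean ± SD of 3; the 3 S100A9 libraries sit between 4.67 and 4.94 CPM for the sum, and the other 9 between 0.367 and 1.14 CPM.

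After S100A8 the summed pair was at 0.669, 0.640 and 0.639 CPM, a spread of 0.017 CPM (SD, n = 3), inside the control range. The log2 difference from control was -0.17 (95% interval -0.94 to 0.60; edgeR adjusted p = 1.00). Apart, SAA1 had 9, 9.95 and 8 counts, close to control, and a log2 difference of 0.16 (-0.69 to 1.02). SAA2 had 2, 1.05 and 3 counts after S100A8 and 3, 5 and 5 in control. All 3 S100A8 libraries lay below all 3 controls in CPM, as did 4.11% of all genes tested, and the highest S100A8 library, at 0.174 CPM, was next to the lowest control, at 0.175 CPM. The log2 difference of SAA2, -1.08 (-2.56 to 0.41), did not pass the test (edgeR adjusted p = 1.00). Of the 4 tested members 0 were called in S100A8 against control, where 0.0074% of all genes were.

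After S100A8/S100A9 the summed pair was at 0.679, 1.14 and 0.367 CPM, wider than any other group and spanning the control values. The log2 difference from control was -0.03 (95% interval -0.77 to 0.71; edgeR adjusted p = 1.00). Apart, SAA1 differed by -0.15 (-1.02 to 0.72) and SAA2 by 0.15 (-1.06 to 1.37). For the pair, replicate 2 was the highest through SAA2, with 10 counts beside 3 and 3 in the other libraries. Replicate 3 was the lowest through SAA1, with 4 counts beside 11 and 9. No member was called, and 0% of all genes were, by edgeR; 757 genes had an unadjusted p under 0.05 and the DESeq2 Wald test called 1 gene.

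**Figure D2:**
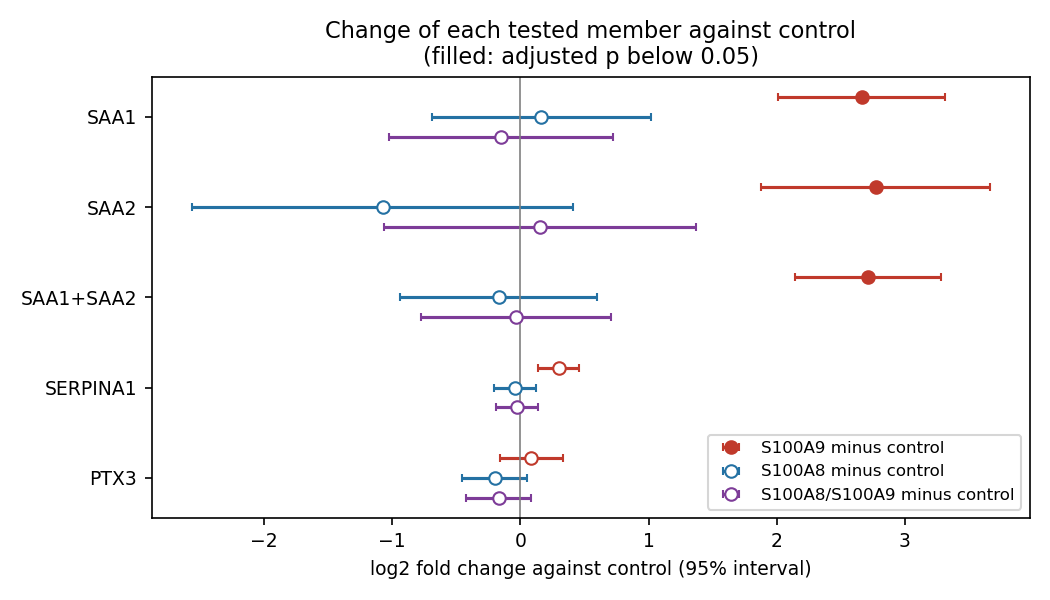
Log2 fold change against control (x axis) of SAA1, SAA2, their sum, SERPINA1 and PTX3 (y axis) after S100A9, S100A8 and S100A8/S100A9, with 95% intervals from edgeR; filled points have an adjusted p below 0.05. The filled points are those of SAA1, SAA2 and their sum after S100A9, at 2.66, 2.77 and 2.71.

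Set directly against S100A9, the S100A8/S100A9 preparation gave 6.70-fold less of the summed pair, a log2 fold change of -2.75 (95% interval -3.31 to -2.18; edgeR adjusted p = 8.87e-07). SAA1 alone differed by -2.81 (-3.46 to -2.16) and SAA2 alone by -2.62 (-3.47 to -1.76). Both are among the 0.222% of genes called lower. S100A9 exceeded S100A8 7.36-fold for the pair, with a log2 fold change of 2.88 (2.30 to 3.46; edgeR adjusted p = 1.03e-06). SAA1 and SAA2 were both called in that comparison, at 2.50 (1.86 to 3.13) and 3.85 (2.81 to 4.88), where 0.17% of all genes were called higher. These comparisons share the S100A9 libraries with the first one and are not separate evidence about them. Both genes passed the filter on low counts only through those libraries, so nothing is read from these shares.

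S100A8/S100A9 and S100A8 did not differ in a way the test could detect: the log2 difference of the pair was 0.14, with an interval from -0.62 to 0.89. That interval allows up to 1.86-fold more or, at 0.650-fold, less after S100A8/S100A9. Here edgeR called 0 members and 0% of all genes; 598 genes had an unadjusted p under 0.05 and the DESeq2 Wald test called 2. In level, S100A9 came first, and the means of S100A8/S100A9 (0.728 CPM), S100A8 (0.649 CPM) and control (0.730 CPM) did not differ beyond their spread.

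SAA2 made up 37.1% of the pair's counts after S100A9 (98 of 264, exact Clopper-Pearson 95% interval 31.3 to 43.3%), against 35.1% in control (13 of 37, 20.2 to 52.5%). In S100A8/S100A9 the share was 40.0% (16 of 40, 24.9 to 56.7%). These 3 shares lay inside each other's counting intervals. In S100A8 the share was lowest, at 18.2% (6 of 33, 7.0 to 35.5%). The mean share after S100A9 exceeded that after S100A8 by 18.9 percentage points, with p = 0.1 in a two-sided exact permutation test, the smallest p that 3 libraries against 3 allow. Since the pair's fractional counts are estimates made before deposit, so are these shares. They are shares of counts, not corrected for gene length, and so do not give the part of SAA2 among the pair's transcripts.

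SERPINA1 (ENSG00000197249, chromosome 14 from 94376747 to 94390693, minus strand) was higher after S100A9 by a small amount that did not pass the test over all genes. It had 37.3, 36.1 and 35.8 CPM in S100A9 libraries, against 30.5, 28.3 and 30.02 CPM in control libraries. All 3 S100A9 libraries lay above all 3 controls, as in 6.22% of all genes tested, and above the other 9 libraries, as in 1.15%. The fold change was 1.23 (95% interval 1.10 to 1.37), a log2 difference of 0.30 (SE 0.08), with an unadjusted p of 6.9e-04 and an adjusted p of 0.19 in edgeR's test. An unadjusted p under 0.001 was reached by 0.451% of all genes in this comparison. With the replicate number as a block, which is not known to pair libraries, SERPINA1 passed at 0.30 (edgeR adjusted p = 0.037). Across groups, the median correlation of deviations was 0.16 in 18 same-numbered pairs of libraries and -0.05 in 36 other pairs. Whether the number marks a shared effect was not tested.

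The other preparations left SERPINA1 near control. It had 33.3, 27.7 and 25.4 CPM after S100A8 and 30.8, 29.1 and 27.2 CPM after S100A8/S100A9, with both groups overlapping control. The log2 differences from control were -0.04 (95% interval -0.21 to 0.12) and -0.03 (-0.19 to 0.13). Directly, S100A8/S100A9 differed from S100A9 by -0.33 (-0.48 to -0.17; edgeR adjusted p = 0.079) and S100A9 from S100A8 by 0.34 (0.18 to 0.50; edgeR adjusted p = 0.083), both short of the threshold of 0.05. The S100A8 libraries spread the most, and without S100A8 replicate 1, its highest library, the difference between S100A9 and S100A8 was 0.45 and passed (edgeR adjusted p = 0.0034). Leaving out S100A8 replicate 3, its lowest library, gave 0.26 and no call (edgeR adjusted p = 0.52). Without a filter on low counts SERPINA1 passed in both direct comparisons, at edgeR adjusted p = 0.029 and 0.022. With the replicate number as a block it passed in both as well, at edgeR adjusted p = 0.0085 and 0.0076. It passed in neither by the DESeq2 Wald test (adjusted p = 0.071 and 0.066) or by limma on log2(FPKM + 1) (adjusted p = 0.60 and 0.49).

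**Figure D3:**
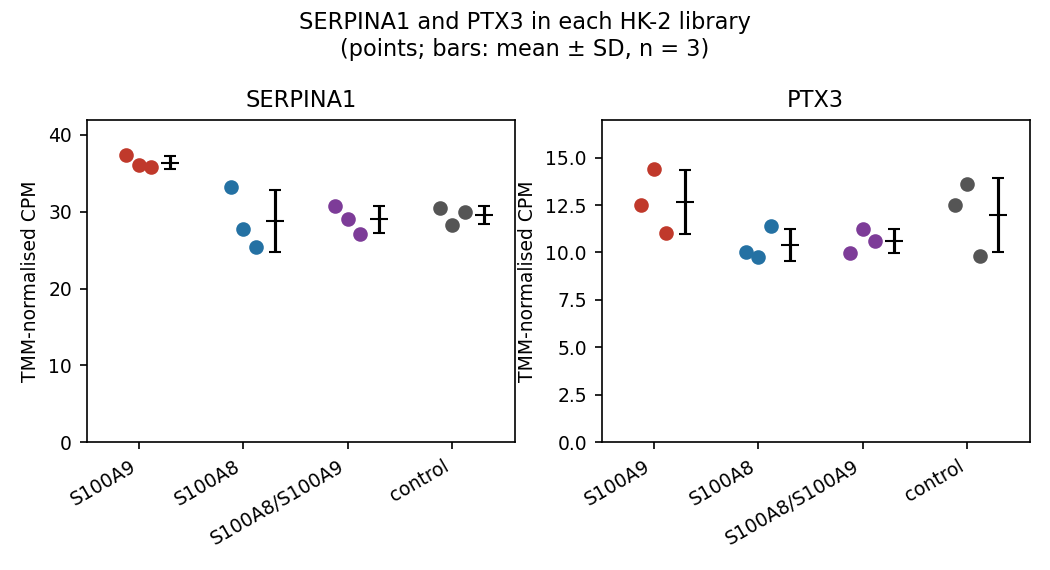
TMM-normalised CPM (y axis, from 0) of SERPINA1 and PTX3 in each library of the 4 groups (x axis), with mean ± SD of 3 as black marks. SERPINA1 lies between 35.8 and 37.3 CPM after S100A9 and between 25.4 and 33.3 CPM in the other 9 libraries, while the PTX3 groups overlap.

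SERPINA3 (ENSG00000196136, chromosome 14 from 94612377 to 94624055, plus strand) was close to undetected. It had 0, 3 and 0 counts in S100A9 libraries, 1, 0 and 0 in S100A8, 0, 1 and 0 in S100A8/S100A9 and 0 in each control. Taking 3 counts as the upper limit of a count of 0, a level as high as 0.189 CPM could go unseen in the shallowest library. SERPINA3 did not pass the filter on low counts and has no test, so no difference between the groups was detectable at this depth. Proteases that these serpins inhibit were likewise near 0: ELANE (neutrophil elastase) reached at most 1 count in any library, PRTN3 (proteinase 3) at most 7, and CTSG (cathepsin G) and CMA1 (chymase) had 0 in all 12.

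PTX3 (ENSG00000163661, chromosome 3 from 157436789 to 157443628, plus strand) was expressed in every library, and its groups overlapped. It had 12.5, 14.4 and 11.03 CPM in S100A9 libraries, against 12.5, 13.6 and 9.80 CPM in control libraries. The log2 difference was 0.09 (95% interval -0.16 to 0.33, edgeR adjusted p = 0.97). The upper end of that interval is a 1.26-fold increase. PTX3 had 10.0, 9.77 and 11.4 CPM after S100A8 and 9.99, 11.3 and 10.6 CPM after S100A8/S100A9. Against control these were log2 differences of -0.20 (-0.45 to 0.06) and -0.17 (-0.42 to 0.08). The largest of the 6 differences was between S100A9 and S100A8, at 0.29 (0.03 to 0.54; unadjusted p = 0.027, edgeR adjusted p = 0.68), and it did not pass. With 1 library left out it ranged from 0.18 (without S100A9 replicate 2) to 0.38, and S100A8 against control from -0.33 (without control replicate 3) to -0.099 (without control replicate 2), with no call. An unadjusted p under 0.05 was reached by 7% of all genes in S100A9 against S100A8.

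Levels of different genes can be compared only per length, for which the authors' FPKM values serve. After S100A9, FPKM was 24.1 ± 0.64 for SERPINA1, 6.69 ± 0.88 for PTX3, 5.70 ± 0.31 for SAA1 and 2.43 ± 0.07 for SAA2. In control it was 20.0 ± 0.68 for SERPINA1, 6.37 ± 1.04 for PTX3, 0.917 ± 0.110 for SAA1 and 0.360 ± 0.141 for SAA2 (SD, n = 3 each). In FPKM, SAA1 stood above 46.0% of genes with a value above 0 after S100A9 and above 27.1% in control. After S100A9 the FPKM ranges of SAA1 (5.35 to 5.96) and PTX3 (5.85 to 7.61) overlapped, and SERPINA1 was the highest of the members in all 4 groups.

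Promoter sequence was in the RefSeq table for SERPINA1 (2 entries), SERPINA3 and PTX3, and the table had no entry for SAA1 and SAA2. The windows searched are the 250 bases before the RefSeq start. RefSeq starts differ from the GENCODE limits given above, and each window reaches inside those limits. The windows of SERPINA1 and PTX3 are printed because they belong to the expressed members outside the SAA pair. Motifs searched on both strands were GGG and CC with any 5 bases between them for NF-kB, TTNNGCAA for C/EBP and TTCNNNGAA for STAT, where N is any base. Among 35116 promoter windows of this length 54.4% hold the NF-kB letters, 9.05% the C/EBP letters and 6.57% the STAT letters. Capitals mark matches. The PTX3 window is chr3:157436600-157436849 on the plus strand, and the SERPINA1 windows are chr14:94390636-94390885 and chr14:94388603-94388852 on the minus strand (GRCh38.p14).
PTX3 promoter: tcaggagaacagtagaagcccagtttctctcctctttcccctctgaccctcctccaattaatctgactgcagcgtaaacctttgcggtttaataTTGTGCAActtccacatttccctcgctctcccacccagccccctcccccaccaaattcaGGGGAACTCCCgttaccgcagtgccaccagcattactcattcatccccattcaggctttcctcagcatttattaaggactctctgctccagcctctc
SERPINA1 upstream promoter: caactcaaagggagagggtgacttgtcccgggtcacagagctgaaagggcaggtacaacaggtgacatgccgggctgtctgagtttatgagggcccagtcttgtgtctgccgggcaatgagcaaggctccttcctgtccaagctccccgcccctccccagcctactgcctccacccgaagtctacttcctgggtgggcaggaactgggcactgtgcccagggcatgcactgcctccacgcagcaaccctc
SERPINA1 downstream promoter: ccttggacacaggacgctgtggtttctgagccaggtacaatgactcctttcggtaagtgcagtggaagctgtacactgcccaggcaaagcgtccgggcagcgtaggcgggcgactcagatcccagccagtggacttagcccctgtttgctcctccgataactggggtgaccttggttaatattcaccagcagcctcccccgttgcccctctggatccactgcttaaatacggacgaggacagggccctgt

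Relative to the RefSeq start, PTX3 held 2 overlapping matches to the NF-kB letters, from -97 to -88 and from -96 to -87. It held 1 match to the C/EBP letters, from -156 to -149. SERPINA3 held 1 match to the NF-kB letters, on the minus strand, from -67 to -58. Neither SERPINA1 window held a match to any of the 3 motifs, which says only that these letters are not there. A match describes sequence and not binding.

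Of 25 other acute-phase genes, 18 did not pass the filter on low counts and 5 of these had 0 counts in all 12 libraries, among them CRP (C-reactive protein), ORM1 and ORM2 (orosomucoids) and HAMP (hepcidin). Of the 7 tested, 2 rose after S100A9, 0 fell and 5 did not pass. Over all genes tested, 0.141% were called higher in this comparison. The list was chosen with earlier results known, so nothing is read from this count. LCN2, the gene of the siderophore-binding protein NGAL, rose by 3.15 on the log2 scale (SE 0.33), and C3, the central complement component, by 1.08 (SE 0.10). CFB, complement factor B, stood at 19.9 ± 0.88 CPM after S100A9 and 14.6 ± 0.60 CPM in control (SD, n = 3 each; edgeR adjusted p = 0.063). CFB was called in both direct comparisons, on the log2 scale. It was lower in S100A8/S100A9 than in S100A9 by 0.72, where 0.222% of all genes were called lower. It was higher in S100A9 than in S100A8 by 0.66, where 0.17% were called higher. FGB, the fibrinogen beta chain, LRG1, a leucine-rich glycoprotein, ITIH3, an inter-alpha-trypsin inhibitor chain, and AGT, angiotensinogen, were all at low levels and did not pass. The median log2 difference of the 7 was 0.23 after S100A9, beside 0.00 for all genes tested, and -0.12 after S100A8 and -0.26 after S100A8/S100A9, where 0 of 7 passed. Each median is the value of a single low gene, in turn ITIH3 (SE 0.33), AGT (SE 0.19) and LRG1 (SE 0.33). No shift of the list is read from them.

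Among 28 genes of acute-phase induction, 24 were tested and 1 passed after S100A9, IL6, at 14.8 ± 1.60 CPM against 6.02 ± 0.90 CPM in control (SD, n = 3 each; log2 fold change 1.30, SE 0.13, edgeR adjusted p = 1.84e-06). IL6 was at 7.72 ± 0.72 CPM after S100A8 and 8.08 ± 1.34 CPM after S100A8/S100A9 (SD, n = 3 each). Those log2 differences from control, 0.36 (SE 0.15) and 0.42 (SE 0.14), did not pass. The median of the 24 in S100A9 against control was 0.01, and 0.141% of all genes tested were called higher in that comparison. IL1B and TNF, which encode the other main inducers, reached at most 3 and 6 counts in any library and were not tested. The signal-transducing subunit IL6ST, at 440 CPM after S100A9 and 444 CPM in control, and the factor STAT3, at 116 CPM in both, did not pass. SOCS3, the feedback inhibitor of IL-6 signalling, was at 16.3 ± 1.04 CPM after S100A9 and 16.0 ± 0.92 CPM in control (SD, n = 3 each). The C/EBP factor genes CEBPD and CEBPB differed by 0.34 and 0.20 on the log2 scale and did not pass (edgeR adjusted p = 0.58 and 0.41).

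**Figure D4:**
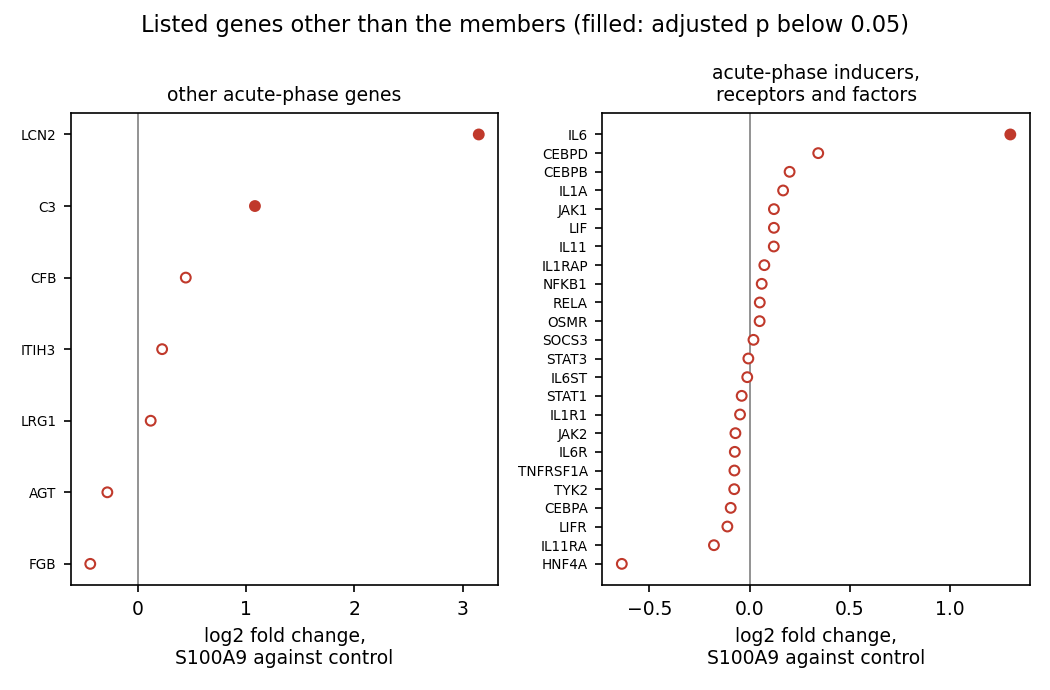
Log2 fold change of S100A9 against control (x axis, a different scale in each panel) for tested genes (y axis) of the lists of other acute-phase genes and of acute-phase inducers, receptors and factors; filled points have an adjusted p below 0.05. LCN2, C3 and IL6 are filled.

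Of 32 other serpin genes 11 were tested and 0 passed in any of the 6 comparisons. Their median log2 difference after S100A9 was -0.01. Over all 13512 genes tested, edgeR called 0 to 34 per comparison, so nothing is read from counts of 0 in these lists. SERPINH1, a collagen chaperone, was at 215 ± 2.18 CPM after S100A9 and 216 ± 9.79 CPM in control, and SERPINB6, an intracellular serpin, at 89.3 ± 2.13 and 92.4 ± 3.28 CPM (SD, n = 3 each). Of 13 genes of the pentraxin family and PTX3 partners 3 were tested and 0 passed in any comparison. Of 7 genes of SAA receptors 5 were tested and 0 passed. The scavenger receptor gene SCARB1 was the most abundant of them, at 158 CPM after S100A9 and 150 CPM in control, followed by TLR2 at 18.5 and 19.3 CPM. The formyl peptide receptor gene FPR2 reached at most 1 count.

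The genes whose log2 CPM was most like that of the summed SAA pair over the 12 libraries were the chemokine gene CXCL8 (Pearson r = 0.97), C3 (0.96), PDZK1IP1 (0.96), LCN2 (0.96) and SOD2 (0.96). These coefficients are a description, set mainly by the 3 S100A9 libraries standing apart from the other 9. SERPINA1 correlated with the pair at 0.84 and PTX3 at 0.50. The genes most like SERPINA1 were PIM3 (0.92), CASP10 (0.91) and BIRC3 (0.91), and those most like PTX3 were RPP40 (0.86), STYXL1 (0.84) and NCOA7 (0.82).

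Library totals ranged from 15882193 to 20748334 counts. All 10 markers of tubule epithelium had a count, with a summed level of 1408 to 1595 CPM over the 12 libraries, but ANPEP, a brush border peptidase, reached at most 5 counts. The 6 hepatocyte markers, among them ALB, summed to 0.257 to 0.702 CPM after S100A9 and 0.376 to 0.817 CPM in control, and 0 of 6 passed the filter. The 6 leukocyte markers summed to 2.47 to 2.93 CPM after S100A9 and 3.03 to 4.03 CPM in control, the 4 endothelial markers to 1.37 to 2.52 and 1.05 to 3.06 CPM, and the 4 fibroblast markers, mostly LUM, to 81.3 to 98.2 and 97.5 to 102 CPM. The leukocyte sums of S100A9 and control did not overlap, through CSF1R, CD14 and ITGAM, while PTPRC reached at most 2 counts; the part of these markers in the results was not tested. No marker that could be tested passed in any of the 6 comparisons.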

How the data were processed

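Per the labels' protocols, mRNA was enriched with oligo(dT) beads, copied with random primers and sequenced on an Illumina instrument, with no step that marks strand described. The authors deposited 1 table with an expected count and an FPKM value per gene and library. Per the file headers and values, the expected counts are estimates per gene, 12.0% of them not whole, and FPKM is the authors' scaling to length and depth. No aligner or counter is named in these sources. GRCm38 and mm10, both mouse, are the builds listed per the submitters' processing notes, although the IDs are human Ensembl IDs. Of 20286 IDs, 20228 were named from a gene name table, 50 from GENCODE release 29 and 8 not at all.

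Rounded counts entered edgeR 4.0.16 under R 4.3.3, with filterByExpr (minimum count 10), TMM, and a robust quasi-likelihood fit to all 12 libraries with 1 coefficient per group. The summed pair was tested in a second fit, with SAA1 and SAA2 added before rounding. Tests were two-sided, adjusted by Benjamini-Hochberg over all genes tested, with a threshold of 0.05. SE was the log2 fold change over the root of the F statistic, and 95% intervals used t quantiles. Alternatives also used DESeq2 1.42.0 and limma 3.58.1 on log2(FPKM + 1). The procedure was also run on simulated counts of independent libraries, with dispersions taken from these data, which says nothing about effects shared between libraries.

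The members, gene lists and tests were chosen with earlier results of these data known. Named genes were the members, up to 4 members past the threshold per list, and the genes of highest Pearson correlation of log2 CPM (prior count 2), 5 for the SAA pair and 3 each for SERPINA1 and PTX3; other genes were named after their values were seen, and some listed genes are not reported here. Where a gene had 0 counts, 3 counts were taken as the upper limit, for counting error only. Replicates of a group differed by more than sampling noise, with 2.35 to 5.38 as the chi-square per degree of freedom over genes.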

Additional observations from a re-analysis of the deposited data

How the results depend on the processing

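The calls of SAA1, SAA2 and their sum, in S100A9 against control, in S100A8/S100A9 against S100A9 and in S100A9 against S100A8, were kept in every alternative run: the replicate number as a block, DESeq2 size factors, no filter on low counts, the DESeq2 Wald test, limma on log2(FPKM + 1), only the 6 libraries compared, and each library left out in turn. The summed pair in S100A9 against control ranged from 2.01 (limma, where the pseudocount shrinks low genes) to 2.72 across settings and from 2.58 to 2.79 without 1 library. SAA2 in limma was 1.34 in S100A9 against control, -1.25 in S100A8/S100A9 against S100A9 and 1.58 in S100A9 against S100A8. The highest adjusted p with a library left out was 0.034 for SAA2 in S100A9 against control and 0.047 for SAA2 in S100A8/S100A9 against S100A9.

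SERPINA1 crossed the threshold in some settings, with nearly the same log2 difference; the cause was not tested. With the replicate number as a block it passed in S100A9 against control at 0.30 (edgeR adjusted p = 0.037), in S100A8/S100A9 against S100A9 at -0.33 (0.0085) and in S100A9 against S100A8 at 0.34 (0.0076). Without a filter on low counts it passed in the last 2, at -0.32 and 0.34, and on only the 6 libraries compared in S100A8/S100A9 against S100A9, at -0.33 (0.041). By the DESeq2 Wald test it passed in none of these comparisons (adjusted p = 0.20, 0.071 and 0.066). By limma on log2(FPKM + 1) it passed in none either (adjusted p = 0.72, 0.60 and 0.49). No label pairs libraries by number. Across groups, 11 of 18 same-numbered pairs had a correlation of deviations over 0.1, and the lowest was -0.17. For 8 of 12 libraries the mean correlation with libraries of other groups was highest for their own number. The block newly called no other member.

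With 1 library left out, differences near 0 changed sign without a call. For the pair they ranged from -0.46 to 0.29 in S100A8/S100A9 against control and from -0.29 to 0.45 in S100A8/S100A9 against S100A8. For SAA1 they ranged from -0.37 to 0.18 and from -0.53 to 0.014 in these comparisons, and for SAA2 from -0.73 to 0.50 in the first. For SERPINA1 they ranged from -0.16 to 0.043 in S100A8 against control, from -0.076 to 0.017 in S100A8/S100A9 against control and from -0.069 to 0.13 in S100A8/S100A9 against S100A8. For PTX3 they ranged from -0.041 to 0.19 in S100A9 against control and from -0.015 to 0.10 in S100A8/S100A9 against S100A8. SERPINA1 in S100A9 against S100A8 kept its sign, ranged from 0.26 to 0.45 and passed without S100A8 replicate 1, at 0.45.

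The count of all genes called was 20 in S100A9 against control, 42 with the block, 11 by limma and 11 to 22 with 1 library left out, where control 1, control 2 and S100A9 3 moved it most, to 12, 11 and 13. It was 34, 71, 10 and 14 to 31 in S100A8/S100A9 against S100A9, and 25, 69, 9 and 14 to 24 in S100A9 against S100A8. In S100A8 against control it was 1, with 0 to 2 in the alternatives, and in S100A8/S100A9 against control 0, with 0 to 2. SAA1 and SAA2 gave no value on only the 6 libraries compared where S100A9 was not among them, since they did not pass the filter there. Depth limits the SAA genes outside S100A9, where a library held 7 to 19 counts of the pair.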
